A study of Mus musculus with 9 samples.

Results

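The 10 genes described here encode inflammatory and haematopoietic cytokines, the secreted proteins by which cells of the marrow signal to each other. Il6, Lif and Osm belong to the family that signals through the shared receptor chain gp130, and Tnf encodes tumour necrosis factor. Il1a, Il18 and Il33 encode members of the interleukin-1 family, and Il1rn encodes the antagonist that blocks the interleukin-1 receptor. Csf1 and Csf3 encode the colony-stimulating factors of macrophages and neutrophils. The genes were chosen by name, and every non-control probe with one of these names was taken from the array files. They are 10 of the 37316 genes named on the array and have 17 of its 56605 probes. Of the 10, 9 had a probe bright enough to test, among 29410 genes tested, and Csf3 did not.

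As background, cytokines bind receptors on the surface of target cells, and the gp130 family activates JAK kinases and STAT3, while the interleukin-1 and tumour necrosis factor families activate NF-kB. Interleukin-18 is made as an inactive precursor that caspase-1 cleaves in the inflammasome, and soluble antagonists and decoy receptors hold the interleukin-1 family in check. In bone marrow, megakaryocytes, macrophages, stromal cells and other cells are known to make such factors, and interleukin-6 is known to raise thrombopoietin and platelet output.

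The arrays follow gene expression in mature megakaryocytes (mMKs), the cells that release platelets, after exposure to ionizing radiation (IR). The mice were male, of an age the labels do not give, the methods name wild-type C57BL/6 animals, and mMKs came from femur and tibia marrow by positive selection for CD41 and then for CD42d. Control mice (Ctrl) were sham-irradiated, while the other groups were taken 1 and 3 days post IR (dpi) after a single whole-body dose of 5 Gy of gamma rays. Each group has 3 arrays from separate experiments with different donors, 9 in all. The labels do not say that same-numbered replicates of different groups share a day or litter.

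RNA was labelled with 1 dye and read on Agilent arrays, where between 69.1% and 81.8% of the non-control spots of an array were well above background. The 75th percentile of log2 signal lay between 10.03 and 10.66 in Ctrl, between 9.33 and 9.45 at 1 dpi and between 10.37 and 10.55 at 3 dpi. A level below is the log2 signal of a probe minus that percentile of its array, so a negative level is a signal under the percentile. Levels of different probes cannot be set against each other, since probes differ in how strongly they bind. With this scaling the log2 fold changes of all genes tested had their median at 0.25 for 1 dpi against Ctrl, at 0.11 for 3 dpi against Ctrl and at -0.11 for 3 against 1 dpi. Ctrl replicate 1 was on a slide of its own and the other 8 arrays shared another, so that a slide term leaves it out of the comparison.

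The selected cells carried megakaryocyte transcripts in every group. All 12 megakaryocyte markers were well above background on all 9 arrays, and Pf4, which encodes platelet factor 4, was the brightest of them. Their summed level (log2) was 7.1, 6.95 and 6.95 in Ctrl, 7.08, 6.93 and 6.91 at 1 dpi and 7.07, 7.05 and 7.04 at 3 dpi. In limma's test 0 of the 12 passed in any comparison, beside 7, 6 and 7 at an unadjusted p under 0.05 with any fold and 0 with 2-fold, by limma or the methods' t-test. Itga2b, which encodes CD41, had a log2 fold change of 0.69 at 1 dpi and -0.03 at 3 dpi (SE 0.07), and Gp5, which encodes CD42d, had -0.54 and -0.28 (SE 0.14). For Pf4 the values were 0.09 and 0.01 (SE 0.06), and the first became -0.34 after quantile normalization and -0.22 after scaling by the array median. The median of the 12 was 0.03 at 1 dpi and turned to -0.17 and -0.29 under those scalings, and under the second 1 marker passed as lower at 1 dpi and 2 as higher between 3 and 1 dpi.

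Of the 8 cytokine genes tested besides Il33, 4 rose and 0 fell at 1 dpi, against 12.3% and 2.87% of all genes tested (15.2% in either direction). Those shares depend on scaling, since 3623 genes rose and 845 fell here, but 1943 and 1510 after quantile normalization. With array-median scaling 1993 rose and 2087 fell, and 3 cytokine genes rose. Il6, Lif, Tnf and Il1rn were higher in the main scaling. Il33 also passed, as lower at 1 and 3 dpi, but it entered the test through Ctrl alone. It was well above background on 0 of 3 arrays at 1 dpi and 1 of 3 at 3 dpi, so its calls are left out of these counts. At 3 dpi 3 rose and 0 fell, against 6.98% and 1.82% of all genes (8.8% either way), with Il6, Lif and Il18 higher. Between 1 and 3 dpi Il18 rose and Lif fell, which is 1 of 8 in each direction, against 3.97% higher and 4.82% lower among all genes (8.8% either way). A gene passed at a limma adjusted p under 0.05 over all genes tested and at least 2-fold change. Another 3 genes at 1 dpi, 4 at 3 dpi and 5 between the time points passed the adjusted p without reaching 2-fold, as did 40.7%, 23.2% and 35.8% of all genes. With arrays scaled by their median, limma's adjusted p missed the threshold for the 4 at 3 dpi (Tnf 0.089, Il1rn 0.54, Osm 0.31 and Csf1 0.29). It also did so for Csf1 at 1 dpi (0.08) and for Il6 (0.64) and Osm (0.06) between the time points. Leaving out Il33, the groups did not overlap for 7 of 8 genes in each comparison, against 67.5%, 47% and 65.5% of all genes. The median log2 fold change of these 8 was 1.05 at 1 dpi, 0.43 at 3 dpi and -0.46 between them, or 0.8, 0.31 and -0.35 relative to the median of all genes. It was 0.9, 0.41 and -0.31 after quantile normalization and 0.74, 0.3 and -0.27 when arrays were scaled by their median. Both time points are compared with the same Ctrl arrays, and in bulk samples more or fewer cells of a type and more or less RNA per cell cannot be told apart.

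**Figure D1:**
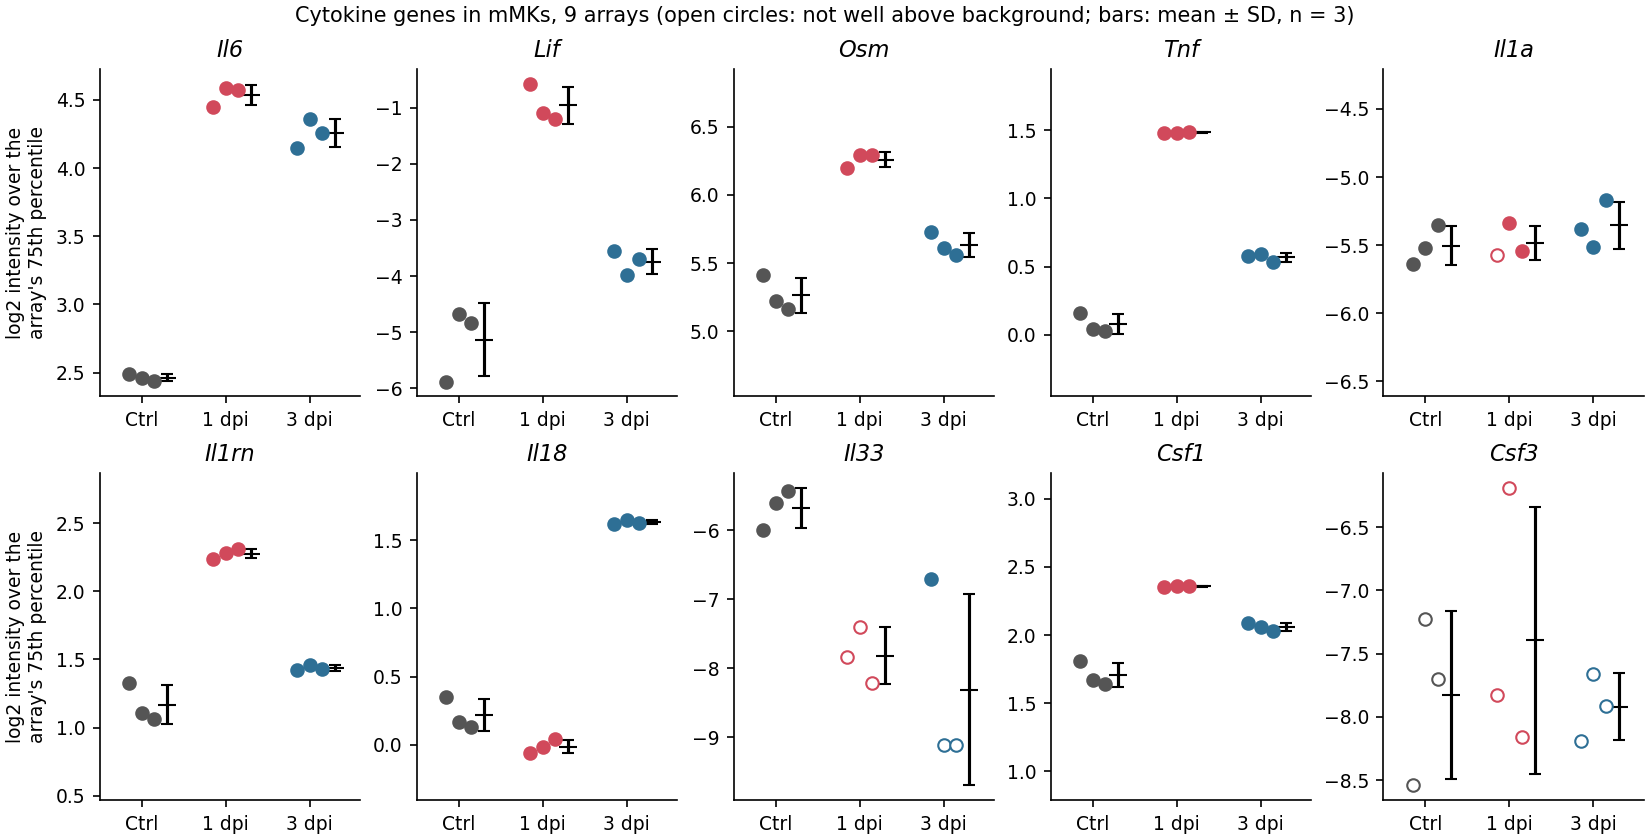
Level of each cytokine gene on each of the 9 arrays (log2 signal minus the array's 75th percentile), 1 panel a gene, with a point for each array, open where it was not well above background, and bars for the group mean and SD over 3 arrays. Il6, Tnf and Lif sit higher on all 3 arrays of 1 dpi than on any Ctrl array, and Il18 stands apart on the 3 arrays of 3 dpi.

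The promoters of 4 of these genes are shown because they moved at different times: Il6 at both, Lif and Tnf most at 1 dpi and Il18 at 3 dpi. Each line is the 250 bases before the annotated start, read 5′ to 3′ on the gene's strand, from RefSeq on GRCm38.p6, and 8 of the 10 genes had a promoter in that table. They are chr5:30012864-30013113 on the plus strand for Il6, chr11:4257318-4257567 plus for Lif, chr17:35202008-35202257 minus for Tnf and chr9:50554450-50554699 plus for Il18. Capitals mark matches to the motifs searched.
Il6: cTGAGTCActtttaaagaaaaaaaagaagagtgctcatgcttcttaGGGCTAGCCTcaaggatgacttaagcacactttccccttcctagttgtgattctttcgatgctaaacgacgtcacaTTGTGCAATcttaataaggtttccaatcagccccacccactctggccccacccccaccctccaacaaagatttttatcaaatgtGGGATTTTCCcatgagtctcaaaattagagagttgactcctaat
Lif: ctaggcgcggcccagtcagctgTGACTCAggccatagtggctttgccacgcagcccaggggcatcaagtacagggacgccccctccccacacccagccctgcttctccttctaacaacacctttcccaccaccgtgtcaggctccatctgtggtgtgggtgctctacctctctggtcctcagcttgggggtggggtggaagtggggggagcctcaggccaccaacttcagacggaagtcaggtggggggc
Tnf: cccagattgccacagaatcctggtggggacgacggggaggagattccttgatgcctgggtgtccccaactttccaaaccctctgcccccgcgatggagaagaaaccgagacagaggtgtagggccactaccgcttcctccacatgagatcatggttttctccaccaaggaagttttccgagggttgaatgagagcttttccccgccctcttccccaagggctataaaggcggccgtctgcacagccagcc
Il18: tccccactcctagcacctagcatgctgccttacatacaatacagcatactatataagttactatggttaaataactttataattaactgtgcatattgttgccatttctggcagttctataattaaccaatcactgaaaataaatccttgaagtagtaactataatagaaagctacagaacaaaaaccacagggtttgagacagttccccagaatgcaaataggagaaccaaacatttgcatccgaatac

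The motifs were searched on both strands of 32841 promoters of this length. The AP-1 letters TGANTCA occurred in 6.75% of them, the cyclic AMP element TGACGTCA in 1.55%, the STAT element TTCNNNGAA in 7.02%, the C/EBP letters TTNNGCAAT in 1.93% and the interferon element GAAANNGAA in 7.13%. The NF-kB motif and a p53 half-site were searched in the same way, as patterns of 10 letters in which some positions allow several bases. They occurred in 5% and 7.13%. Il6 held 4 matches, to AP-1, the p53 half-site, C/EBP and NF-kB, which start 249, 204, 128 and 44 bases before the annotated start. Lif held 1, to AP-1, 228 bases before it, while Tnf and Il18 held 0. Of the promoters not printed, that of Il1a and 1 of those of Il1rn had an AP-1 match and that of Csf1 an NF-kB match. No matches overlapped in a promoter, and a match describes letters and not a site in use.

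Il6 encodes interleukin-6, a driver of the acute-phase response. Its level was 2.49, 2.46 and 2.44 on the Ctrl arrays, 4.45, 4.59 and 4.57 at 1 dpi and 4.15, 4.36 and 4.26 at 3 dpi. All 6 arrays of irradiated mice were above all 3 of Ctrl, and the 3 and 1 dpi arrays also did not overlap. The rise was 4.2-fold at 1 dpi (log2 fold change 2.07, SE 0.07, adjusted p = 1.2e-06) and 3.45-fold at 3 dpi (1.79, adjusted p = 1.7e-06), or 1.82 and 1.67 relative to the median of all genes. Between 3 and 1 dpi the log2 difference was -0.28 (adjusted p = 0.016), under 2-fold, and -0.09 (adjusted p = 0.64) when scaled by the array median. Il6 thus stayed near its early level to the later time point. A second probe gave 1.98 and 1.81 against Ctrl, but its 3 and 1 dpi arrays overlapped (-0.16, adjusted p = 0.19). The brightest lies on chr5:30346367-30346426 (mm9, as the array files give it).

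Lif encodes leukaemia inhibitory factor, known for its action on stem cells and in inflammation. On the Ctrl arrays its level was -5.88, -4.68 and -4.84, at 1 dpi it was -0.58, -1.09 and -1.21, and at 3 dpi it was -3.55, -3.99 and -3.7. The 3 groups did not overlap, with 1 dpi highest and 3 dpi between it and Ctrl, and Ctrl replicate 1 was the lowest array. Lif was well above background on all 3 Ctrl arrays but dim there. Replicate 1 lay near the lowest such signal of its array (-6.22), so the size of the folds against Ctrl rests on dim arrays. The rise of 18-fold at 1 dpi was the largest among the 9 genes (log2 fold change 4.17, SE 0.33, adjusted p = 4.6e-05). At 3 dpi Lif was 2.6-fold above Ctrl (1.38, adjusted p = 0.014), having fallen by 2.79 on the log2 scale since 1 dpi (adjusted p = 0.00046). Quantile normalization gave 3.88 at 1 dpi, and together with normexp background correction (normexp with quantiles below, as normexp was not run alone) it gave 2.63. Relative to the median of all genes these are 3.92, 1.27 and -2.68. The call at 3 dpi was lost without 3 dpi replicate 1 (1.28, adjusted p = 0.05, just above the threshold), with normexp with quantiles (0.54) and in the methods' t-test after adjustment (adjusted p = 0.087), where the 22 alternatives ranged from 0.0049 to 0.087, and without Ctrl replicate 1, which is also the slide block, it was at the limit (1, adjusted p = 0.0093). Its single probe lies on chr11:4172032-4172091 (mm9).

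Osm encodes oncostatin M, a cytokine of blood cells close to Lif in family and on chromosome 11. The level was 5.41, 5.22 and 5.16 in Ctrl, 6.2, 6.29 and 6.29 at 1 dpi and 5.73, 5.61 and 5.56 at 3 dpi. Although the 3 groups did not overlap, the change at 1 dpi was under 2-fold (log2 fold change 0.99, SE 0.08, 1.99-fold, adjusted p = 6.6e-05). It passed without Ctrl replicate 1, which is also the value with slide as a block (1.07), and without 1 dpi replicate 1 (1.02), but was further below after quantile normalization without and with normexp (0.57 each), array median scaling (0.68) and in the deposited table (0.83). At 3 dpi the value was 0.37 (adjusted p = 0.012), and 0.75 and 0.25 are the values relative to all genes. A second probe gave 0.84 and 0.28, and the deposited table follows this dimmer probe for Osm.

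Tnf encodes tumour necrosis factor, an early signal of inflammation. Its level was 0.16, 0.04 and 0.03 in Ctrl, 1.48, 1.48 and 1.49 at 1 dpi and 0.58, 0.59 and 0.53 at 3 dpi. Again 1 dpi was highest and 3 dpi lay in between, with no overlap of the groups. The rise at 1 dpi was 2.65-fold (log2 fold change 1.4, SE 0.06, adjusted p = 2.2e-06). At 3 dpi the value was 0.49 (adjusted p = 0.0005), and between the time points it was -0.92 (adjusted p = 3.5e-05), both under 2-fold. Relative to all genes the values are 1.16, 0.37 and -0.81. A second probe gave 1.26 and 0.51 against Ctrl, and the brightest lies on chr17:35336795-35336854 (mm9).

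**Figure D2:**
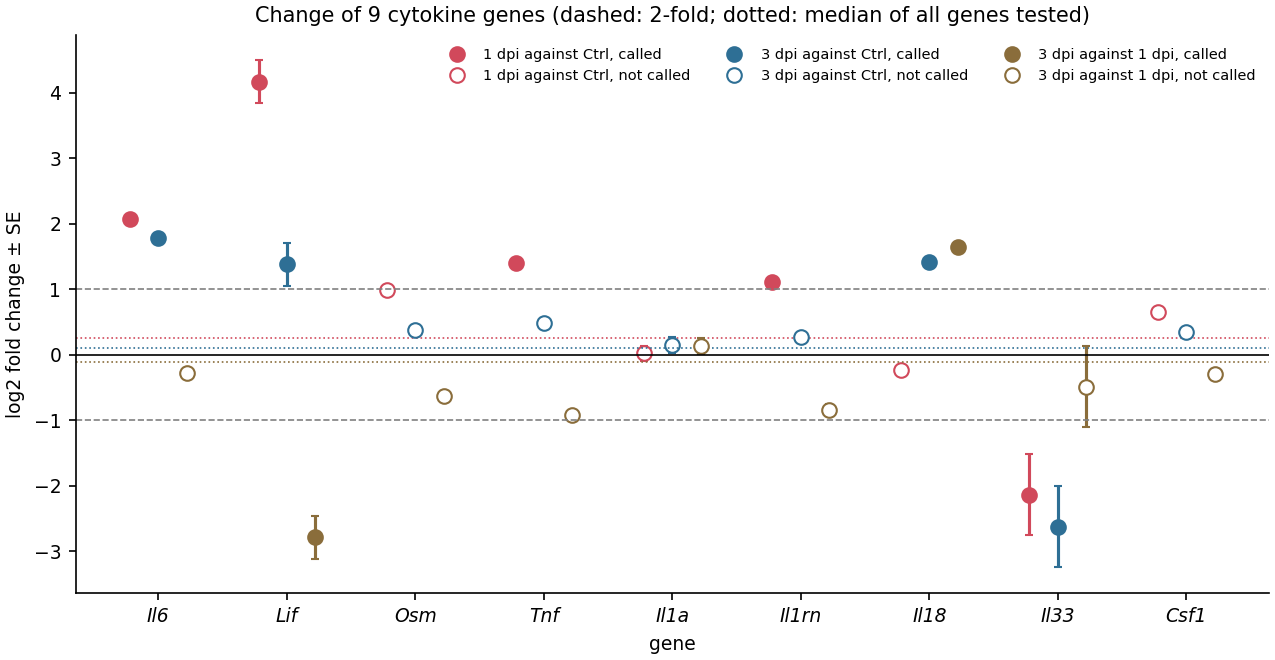
Log2 fold change of each of the 9 tested cytokine genes at 1 dpi and 3 dpi against Ctrl and between 3 and 1 dpi, with its SE from limma (3 arrays a group); filled points passed, dashed lines mark 2-fold and dotted lines the median of all genes tested. Il6 lies near 2 at both times, Lif falls back from 4.17 to 1.38, and Il18 rises to 1.42 at 3 dpi after -0.23 at 1 dpi. The third point of Il33 sets 1 of 3 measured arrays against 0 of 3, and none of its points is a size of change, since they rest on arrays mostly at background.

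Of the interleukin-1 family genes, Il18 differed most between the time points. It encodes interleukin-18, which induces interferon-gamma in T and NK cells. The level was 0.35, 0.17 and 0.13 in Ctrl, -0.06, -0.02 and 0.04 at 1 dpi and 1.62, 1.65 and 1.63 at 3 dpi. At 1 dpi all 3 arrays lay just under Ctrl, with a log2 fold change of -0.23 (SE 0.07, adjusted p = 0.03) that was under 2-fold. At 3 dpi all 3 arrays were well above both other groups, 2.68-fold over Ctrl (1.42, adjusted p = 5.1e-06) and 3.13-fold over 1 dpi (1.65, adjusted p = 9.6e-06). Relative to all genes the values are -0.47, 1.31 and 1.76. Its probe lies on chr9:50389886-50389942 (mm9).

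Il1rn, the gene of the interleukin-1 receptor antagonist, had levels of 1.33, 1.11 and 1.06 in Ctrl, 2.24, 2.28 and 2.31 at 1 dpi and 1.42, 1.46 and 1.43 at 3 dpi. All 3 arrays of 1 dpi stood above the others. It rose 2.16-fold at 1 dpi (log2 fold change 1.11, SE 0.08, adjusted p = 2.9e-05), and had 0.27 at 3 dpi (adjusted p = 0.033) and -0.84 between them (adjusted p = 0.00018). Relative to all genes the values are 0.86, 0.16 and -0.73. The call at 1 dpi rests on the 2-fold limit, since it was lost when arrays were scaled by their median (0.8) or when its probes were averaged (0.98), and the second probe alone gave 0.85 (adjusted p = 0.0024). Its brightest probe lies on chr2:24206125-24206184 (mm9).

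Il33 encodes interleukin-33, an alarmin of the cell nucleus, and was dim on all arrays. Its level was -6, -5.61 and -5.43 in Ctrl, where all 3 arrays were well above background. It was -7.84, -7.4 and -8.22 at 1 dpi, on 0 of 3 arrays well above background, and -6.71, -9.11 and -9.11 at 3 dpi, where only replicate 1 was. In limma's fit Il33 was lower at 1 dpi (-2.14, adjusted p = 0.02) and at 3 dpi (-2.63, adjusted p = 0.014), each with an SE of 0.62. These fitted values, and those below, set Ctrl against arrays mostly at background and are no size of change. No array of 1 dpi measured Il33. With those arrays taken at the lowest signal of any probe well above background, their mean was -5.76. Ctrl was at -5.68 ± 0.29 (SD, n = 3), a margin within its own spread, so no least size of fall is given at 1 dpi. The same holds at 3 dpi, where only replicate 1 measured Il33. The call at 1 dpi was lost without Ctrl replicate 3 (-2.01, adjusted p = 0.054), 1 dpi replicate 1 (-2.13, 0.055) or 1 dpi replicate 3 (-1.94, 0.064), and that at 3 dpi without 3 dpi replicate 2 or 3 (-2.23 each, adjusted p = 0.05 and 0.051). Normexp with quantiles gave -0.5 and -0.46, and the methods' t-test an adjusted p of 0.1 at 3 dpi. Over the alternatives the adjusted p ranged from 0.00052 to 0.064 at 1 dpi and from 0.0002 to 0.1 at 3 dpi. Between the time points no value is given in the text, and the plotted point is no size of change, since 1 of the 6 arrays was well above background. Its second probe was well above background on 1 array and was not tested, and Il33 itself was not tested when all 9 arrays had to be above background.

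Il1a encodes interleukin-1 alpha, which cells hold inside and release on injury, and its probe was dim as well. The level was -5.64, -5.52 and -5.35 in Ctrl, -5.57, -5.34 and -5.54 at 1 dpi and -5.38, -5.51 and -5.17 at 3 dpi, with 1 dpi replicate 1 not well above background. The groups overlapped in all 3 comparisons. The log2 fold change was 0.02 at 1 dpi (95% confidence interval -0.25 to 0.3) and 0.15 at 3 dpi (-0.12 to 0.43), and the first turned to -0.53 after quantile normalization (adjusted p = 0.016) and in the deposited table (adjusted p = 0.017), under 2-fold, and to -0.29 after scaling by the array median.

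Of the colony-stimulating factors, Csf1, the gene of the macrophage factor, was measured by 3 probes. The brightest was at 1.81, 1.67 and 1.64 in Ctrl, 2.35, 2.36 and 2.36 at 1 dpi and 2.09, 2.06 and 2.03 at 3 dpi. The groups did not overlap, but the log2 fold change was under 2-fold both at 1 dpi (0.65, adjusted p = 0.00013) and at 3 dpi (0.35, adjusted p = 0.0038; SE 0.06 each). Its other probes, which overlap each other in position, gave 1.06 and 1.07 at 1 dpi and 0.83 each at 3 dpi, and passed at 1 dpi. The deposited table of log2 values follows such a dimmer probe and gave 1.05, so whether Csf1 passes depends on the probe. The brightest probe lies on chr3:107544333-107544392 and the others from chr3:107548521 to 107548609 (mm9). Csf3, which encodes the neutrophil factor, was well above background on 0 of 9 arrays, and its mean level was -7.82 ± 0.66 in Ctrl, -7.39 ± 1.06 at 1 dpi and -7.92 ± 0.27 at 3 dpi (SD, n = 3).

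Counted by probe and without that of Il33, 8 of the 14 that could be tested passed at 1 dpi, 4 at 3 dpi and 2 between the time points, against 14.6%, 8.44% and 8.78% of 44300 probes. Il6 and Tnf passed at 1 dpi with every probe. Il1rn and Csf1 did so with some, which is where probes of a gene disagree about the 2-fold limit, though never about the direction at 1 dpi.

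**Figure D3:**
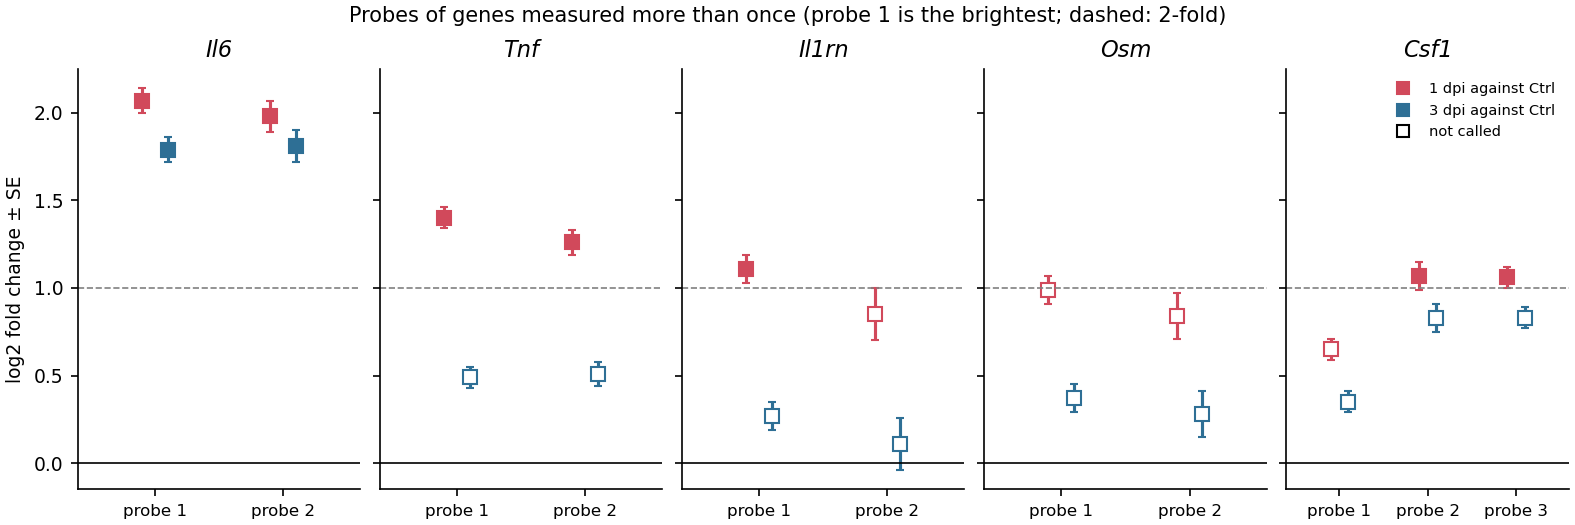
Log2 fold change with SE at 1 and 3 dpi against Ctrl for each tested probe of the cytokine genes that have more than 1, where probe 1 is the brightest, open points did not pass and the dashed line is 2-fold. The probes of a gene lie on the same side of 0, and those of Csf1 spread from 0.65 to 1.07 at 1 dpi.

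The receptors and binding proteins of these cytokines come next. For these and the later lists, the shares of all genes that rose and fell were 12.3% and 2.87% at 1 dpi. They were 6.98% and 1.82% at 3 dpi and 3.97% and 4.82% between the time points. Of 15 receptors and binding proteins tested, 5 rose and 0 fell at 1 dpi, 5 rose and 0 fell at 3 dpi, and 2 rose and 0 fell between them, with medians of 0.4, 0.43 and 0.09. The first was 0.23 after quantile normalization and 0.09 when scaled by the array median, where the last was 0.28. Under each of these scalings 3 rose between the time points. In the gp130 family Lifr, the receptor chain of leukaemia inhibitory factor, had a log2 fold change of 1.04 at 1 dpi and 3.01 at 3 dpi (SE 0.1, adjusted p = 0.00011 and 5.9e-07), and rose by 1.97 between them (adjusted p = 1.3e-05). The probes of Lifr ranged from 1.99 to 3.01 at 3 dpi and from 0.77 to 1.97 between 1 and 3 dpi. So Lif and its receptor gene moved in opposite directions between 1 and 3 dpi. Osmr, the oncostatin M receptor chain, rose by 1.6 and then 2.56 against Ctrl (SE 0.12, adjusted p = 3.1e-05 and 2.9e-06). Il6st, which encodes gp130, at 3 dpi rose by 1.16 (SE 0.09, adjusted p = 5e-05), and its value of 1.01 against 1 dpi fell to 0.67 when its probes, which ranged from -0.32 to 1.31, were averaged. It missed 2-fold there without 1 dpi replicate 2 (0.99) or 3 dpi replicate 3 (0.97), and missed the adjusted p at 3 dpi in the deposited table (0.06).

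Among brakes on the interleukin-1 family, Il1r2, which encodes a decoy receptor, rose by 2.24 at 1 dpi and 1.25 at 3 dpi (SE 0.2, adjusted p = 9.4e-05 and 0.0024). Without Ctrl replicate 1, which is also the slide block, the second was 0.99. Il18bp, which encodes the protein that captures interleukin-18, rose by 1.56 at 1 dpi (SE 0.07, adjusted p = 2.4e-06), the time at which Il18 itself was not raised. Tnfrsf1b, a receptor of tumour necrosis factor, rose by 1.17 (SE 0.11, adjusted p = 9.1e-05), and Csf1r, the receptor of the macrophage factor, by 1.05 at 3 dpi (SE 0.08, adjusted p = 5.7e-05). Scaling by the array median left Tnfrsf1b at 0.85 and Lifr at 0.73 at 1 dpi, under 2-fold, and Lifr was also under it after quantile normalization (0.89) and without 1 dpi replicate 3 (0.99). At 3 dpi Csf1r was 1 and no longer passed after quantile normalization, 0.92 when scaled by the array median, 0.84 as the mean of its probes, and 0.99 in the deposited table and without Ctrl replicate 3, so that 4 receptors rose under each other scaling. Under normexp with quantiles Osmr was 0.74 and Lifr 0.71 at 1 dpi, and Osmr was 1.6 at 3 dpi.

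Of 24 related cytokines tested, of 25 listed, 5 rose and 0 fell at 1 dpi (12.3% and 2.87% of all genes) and 5 rose and 2 fell at 3 dpi (6.98% and 1.82%). Between the time points 2 rose and 2 fell (3.97% and 4.82%). The medians were 0.43, 0.23 and -0.17 (0.12, 0.1 and 0.02 when scaled by the array median and 0.15, 0.15 and 0.01 by quantiles). Il10, an anti-inflammatory cytokine, rose by 1.74 and 2.49 (SE 0.07, adjusted p = 2.2e-06 and 3.9e-07). Il1b, the secreted interleukin-1, rose by 1.44 at 1 dpi (SE 0.06, adjusted p = 1.8e-06). Il36g, of the same family as Il1b, rose by 1.15 at that time (SE 0.09, adjusted p = 4e-05), and of these genes Il10 had its larger value at 3 dpi. When scaled by the array median Il36g was 0.84 and no longer passed, while Il12a was -1.02 at 1 dpi and passed, so that 4 were higher and 1 lower. Under normexp with quantiles Il10 was 0.74 at 1 dpi and 1.42 at 3 dpi. At 3 dpi Il34, a second ligand of the macrophage factor's receptor, rose by 2.25 (SE 0.25, adjusted p = 0.00036; 1.46 under normexp with quantiles) and Lta, the gene of lymphotoxin, by 1.44 (SE 0.12, adjusted p = 6.1e-05; 0.69 likewise). Il12a, a subunit of interleukin-12, fell by 1.27 (SE 0.07, adjusted p = 8.5e-06).

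The remaining calls in that list follow. The first pair was outside the rule for naming against Ctrl and was named after the values were seen. Csf2, the gene of the granulocyte and macrophage factor, rose by 2.41 and 3.17 (SE 0.11), and Il7, a lymphocyte growth factor, by 1.84 and 3.11 (SE 0.24), while both were well above background on 2 of 3 Ctrl arrays. Il7 also rose by 1.28 between 1 and 3 dpi, but by the mean of its probes the value was 0.23, and 1.63 at 3 dpi against Ctrl. Il34 rose by 1.4 between the time points (adjusted p = 0.0032), with its other probe at 0.69, under 2-fold. Ctf1, which encodes cardiotrophin of the gp130 family, fell by 1.24 from 1 to 3 dpi (SE 0.15, adjusted p = 0.0006) and was at -1.05 against Ctrl at 3 dpi, or -0.93 without 3 dpi replicate 1. Il1f10 fell by 1.08 between them (SE 0.26, adjusted p = 0.011), which missed 2-fold under both other scalings (-0.86 and -0.89) and without 1 dpi replicate 1 (-0.98), 1 dpi replicate 2 (-0.98) or 3 dpi replicate 1 (-0.93). Normexp with quantiles gave Csf2 0.64 and 1.26, and left under 2-fold Il7 at 1 dpi (0.32) and between the time points (0.72; 1.03 at 3 dpi), and Ctf1 (-0.72 and -0.71).

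**Figure D4:**
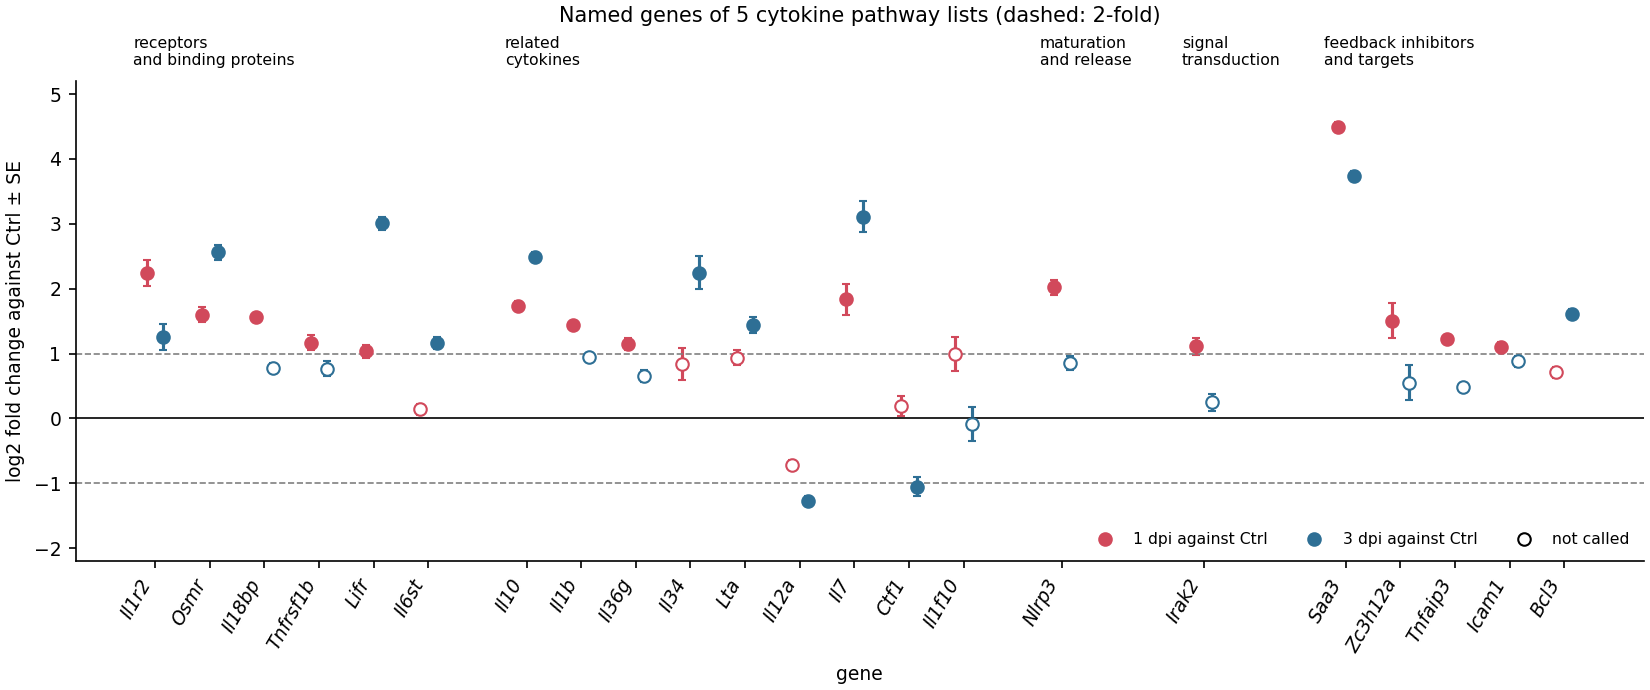
Log2 fold change at 1 dpi and 3 dpi against Ctrl of the genes named from 5 pathway lists, with SE; filled points passed, open points did not, and dashed lines mark 2-fold. Of the receptors Lifr and Osmr are higher at 3 dpi (3.01 and 2.56) than at 1 dpi, while Il1r2 goes from 2.24 to 1.25 and Il18bp and Tnfrsf1b pass at 1 dpi only, and Saa3 reaches 4.49 at 1 dpi.

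Of 11 genes tested that mature and release these cytokines, 1 rose at 1 dpi, 0 passed at 3 dpi and 1 fell between them, with medians of 0.38, 0.33 and -0.05 (0.07, 0.21 and 0.14 when scaled by the array median). These counts are near the shares of all genes that passed. The gene was Nlrp3, the sensor of the inflammasome, which at 1 dpi rose by 2.02 (adjusted p = 9e-06, SE 0.11) and fell by 1.17 from 1 to 3 dpi (adjusted p = 0.00021), or -0.98 when scaled by the array median and -0.94 under normexp with quantiles. Its value against Ctrl was larger at 1 than at 3 dpi, whereas Il18 rose at 3 dpi. Casp1, which encodes the enzyme that cleaves interleukin-18, had 0.44 and 0.33 (SE 0.06), under 2-fold. At 3 dpi limma gave 7 of the 11 an unadjusted p under 0.05, none of them with 2-fold, and the methods' t-test also gave 0 with 2-fold.

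Among 17 signal transducers, from adaptors to STAT3 and NF-kB subunits, 1 rose at 1 dpi, beside 12.3% of all genes, and 0 passed in the other comparisons. Whether this list differs from all genes was not tested. The medians were 0.04, 0 and 0.01, the first of which was -0.06 after quantile normalization, and -0.28, -0.12 and 0.2 when scaled by the array median. Irak2, a kinase-like partner of the interleukin-1 receptor, rose by 1.11 (SE 0.13, adjusted p = 0.00031), but by 0.8 when scaled by the array median and 0.98 as the mean of its probes. In each of the other comparisons limma gave 6 of 17 an unadjusted p under 0.05, with 0 at 2-fold by either test.

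Feedback inhibitors and known targets of the cytokines included 4 of 14 that rose at 1 dpi (12.3% of all genes) and 2 that rose at 3 dpi (6.98%). Between the time points 0 passed (8.8% of all genes either way), and the medians were 0.74, 0.44 and -0.53. The last was -0.18 after quantile normalization, and the first and last were 0.43 and -0.34 when scaled by the array median. Saa3, an acute-phase gene, rose by 4.49 at 1 dpi and 3.74 at 3 dpi (SE 0.08, adjusted p = 8.2e-08 and 1.8e-07), so like Il6 it stayed high. Zc3h12a, which encodes an enzyme that degrades Il6 mRNA, rose by 1.51 at 1 dpi (SE 0.27, adjusted p = 0.0025), with a second probe at 0.5, and by 1 as the mean of both. Tnfaip3, which encodes the NF-kB brake A20, rose by 1.22 (SE 0.06, adjusted p = 4e-06) and Icam1, an adhesion molecule, by 1.1 (SE 0.08, adjusted p = 3.5e-05). These early rises were under 2-fold for Tnfaip3 (0.9) and Icam1 (0.78) when scaled by the array median, and for Tnfaip3 also after quantile normalization without and with normexp (0.95 each). Bcl3, a nuclear partner of NF-kB, rose by 1.61 at 3 dpi (SE 0.08, adjusted p = 5.4e-06). Its 0.9 between the time points became 1.09 and passed when scaled by the array median. Between the time points limma gave 12 of 14 an unadjusted p under 0.05 with 0 at 2-fold, and the methods' t-test gave 0.

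Some genes followed the cytokines closely over the 9 arrays, given as a description over 29409 other genes with 3 groups of arrays behind each value. The highest Pearson r for Il6 was 0.998, with Gbp6 and Zmat3, and for Tnf it was 0.999, with Mdm2, Gbp2 and Cd33. Mdm2 and Zmat3 are known p53 targets and Gbp2 and Gbp6 are interferon-inducible GTPases. For Il18 the most alike were Pdgfc and Adam9 (0.999) and Slco2b1 (0.998), for Il1rn Capza1 (0.996), Ifi47 and Mcpt-ps1 (0.995), and for Lif Gm7160 (0.997) and Herc2 (0.996), besides an unnamed transcript for Lif and an unnamed region for Il6.

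Markers of other cell types moved beside the cytokines, and their part in the cytokine changes was not tested. Of 10 macrophage markers 4 rose and 1 fell at 1 dpi, 8 rose at 3 dpi and 6 rose between the time points, with medians of 0.43, 1.85 and 1.12 (1.08 with a gene not measured at 1 dpi at its bound), and the first was 0.12 when scaled by the array median. The summed level was 5.14, 4.94 and 4.89 in Ctrl, 5.99, 5.9 and 5.95 at 1 dpi and 6.67, 6.64 and 6.58 at 3 dpi, so each group stood apart. Cd68, the brightest, had 1.36 and 1.8 (SE 0.1, adjusted p = 3e-05 and 7.1e-06). At 3 dpi the complement genes C1qb (2.51), C1qc (2.39) and C1qa (2.37) and the mannose receptor gene Mrc1 (2.19) rose most. Of these C1qb and C1qc had already risen at 1 dpi (1.51 and 1.39), as had Cd14 (1.66), while Cd163 fell by 2.07 there. The probes of C1qc disagree, from 0.51 to 1.39 at 1 dpi and from 0.42 to 2.39 at 3 dpi, and their mean at 1 dpi was 0.95, under 2-fold. Vsig4 was well above background on 0 of 3 arrays at 1 dpi and 2 of 3 in Ctrl, and the other 9 markers were so on all 9 arrays.

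Stromal markers rose further. Of 10, 7 rose at each time and 5 rose between them, with medians of 1.5, 3.5 and 1.04 and all 10 well above background on every array. Their summed level was 3.38, 3.31 and 3.38 in Ctrl, 5.68, 5.46 and 5.58 at 1 dpi and 6.59, 6.46 and 6.57 at 3 dpi. Cxcl12, the brightest and a chemokine of marrow stroma, had 2.71 and 3.5 (SE 0.11), and Adipoq rose by 4.23 at 3 dpi. Of 8 endothelial markers 3, 5 and 1 rose, with medians of 0.58, 1.68 and 0.75, and scaling by the array median left 1 higher and 1 lower at 1 dpi with a median of 0.26. Between the time points 3 rose under that scaling and 3 after quantile normalization. The summed level went from 2.98, 2.91 and 2.93 through 3.67, 3.48 and 3.49 to 3.94, 3.71 and 3.74, with Egfl7 the brightest and Flt4 well above background on 2 of 3 arrays in Ctrl and at 1 dpi. Of the receptors and related cytokines, Lifr, Il6st, Il34 and Il7 passed as higher between 1 and 3 dpi, each with another probe under 2-fold. Osmr had 0.96, under 2-fold. Whether these changes are related to those of the markers was not tested.

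Of 8 mast cell and basophil markers 5 rose at 1 dpi (3 when scaled by the array median), 3 at 3 dpi and 0 passed between them (6 at an unadjusted p under 0.05 in limma, 0 at 2-fold there or in the methods' t-test), with medians of 1.17, 0.99 and -0.15, the last 0.04 when scaled by the array median and -0.04 after quantile normalization. Their summed level was 7.03, 6.85 and 6.77 in Ctrl, 8.56, 8.57 and 8.56 at 1 dpi and 7.94, 7.86 and 7.8 at 3 dpi. The sum was highest at 1 dpi and follows its brightest gene, Prss34, which had 2.1 and 1.17 (SE 0.13), while Tpsb2 had 1.34 and 2.01 and Gzmb 1.2 and 1.24. All 8 were well above background on every array.

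Of 9 neutrophil markers 2 rose at 1 dpi, S100a8 (1.14) and S100a9 (1.02), and 0 did under both other scalings. At 3 dpi 0 passed and 0 had an unadjusted p under 0.05, and between the time points 0 passed beside 8 so in limma, with 0 at 2-fold by either test. The medians were 0.77, 0.01 and -0.73, which became 0, -0.05 and -0.08 after quantile normalization and 0.46 and -0.12 for the first and second when scaled by the array median. The summed level was 10.1, 10.21 and 10.19 in Ctrl, 10.97, 10.87 and 10.85 at 1 dpi and 10.27, 10.11 and 10.19 at 3 dpi, with Mpo the brightest and all 9 measured throughout. Of 9 T and NK cell markers 1, 3 and 2 rose, with medians of 0.56, 0.41 and 0.09 (-0.13 for the last after quantile normalization, 0.24 and 0.28 for the first and last when scaled by the array median), and the 1 at 1 dpi did not pass when scaled by the array median, where another was lower. Their level was 4.92, 4.99 and 4.92, then 5.45, 5.35 and 5.36, then 5.19, 5.04 and 5.01, with Nkg7 the brightest and all 9 measured throughout.

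B cell markers went down, with 7 of 8 lower at each time and 2 higher between them, and medians of -3.82, -3.3 and 0.19 (0.36 and 0.38 for the last under the other scalings). Their level was 4.85, 4.77 and 4.81 in Ctrl, 2.54, 2.48 and 2.52 at 1 dpi and 2.46, 2.42 and 2.42 at 3 dpi, with Cd79b the brightest and all 8 measured throughout. Of 8 erythroid markers 2 rose (1 under either other scaling) and 5 fell at 1 dpi, 7 fell at 3 dpi, and 4 rose and 3 fell between them, with medians of -1.68, -1.92 and 0.76. Their level was 6.71, 6.42 and 6.47, then 7.94, 7.65 and 7.62, then 5.07, 5.06 and 4.94, with Hba-a1 the brightest. On each array of 1 dpi 7 of the 8 were well above background, and the last median was 0.73 with a gene not measured at 1 dpi at its bound. Of 7 dendritic cell markers tested, of 8 listed, 1 rose and 3 fell at 1 dpi (0 and 4 under either other scaling), 2 fell at 3 dpi and 1 rose between them, with medians of -0.84, -0.38 and -0.41 (-0.27 and -0.21 for the last under the other scalings). Their level was 4.22, 5.06 and 5.09, then 5.7, 5.59 and 5.54, then 4.84, 4.67 and 4.64, carried by Siglech (1.08 at 1 dpi), whose probes disagree and which was -2.08 there in the deposited table. Xcr1 was too dim to test. The summed level at 1 dpi was thus lower than in Ctrl for B cell markers. For erythroid and dendritic cell markers the sum was higher, but it follows the brightest gene, Hba-a1 or Siglech. Of these lists 5 of 8 and 3 of 7 fell at 1 dpi, with medians of -1.68 and -0.84. The part of these cells in the cytokine changes was not tested.

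**Figure D5:**
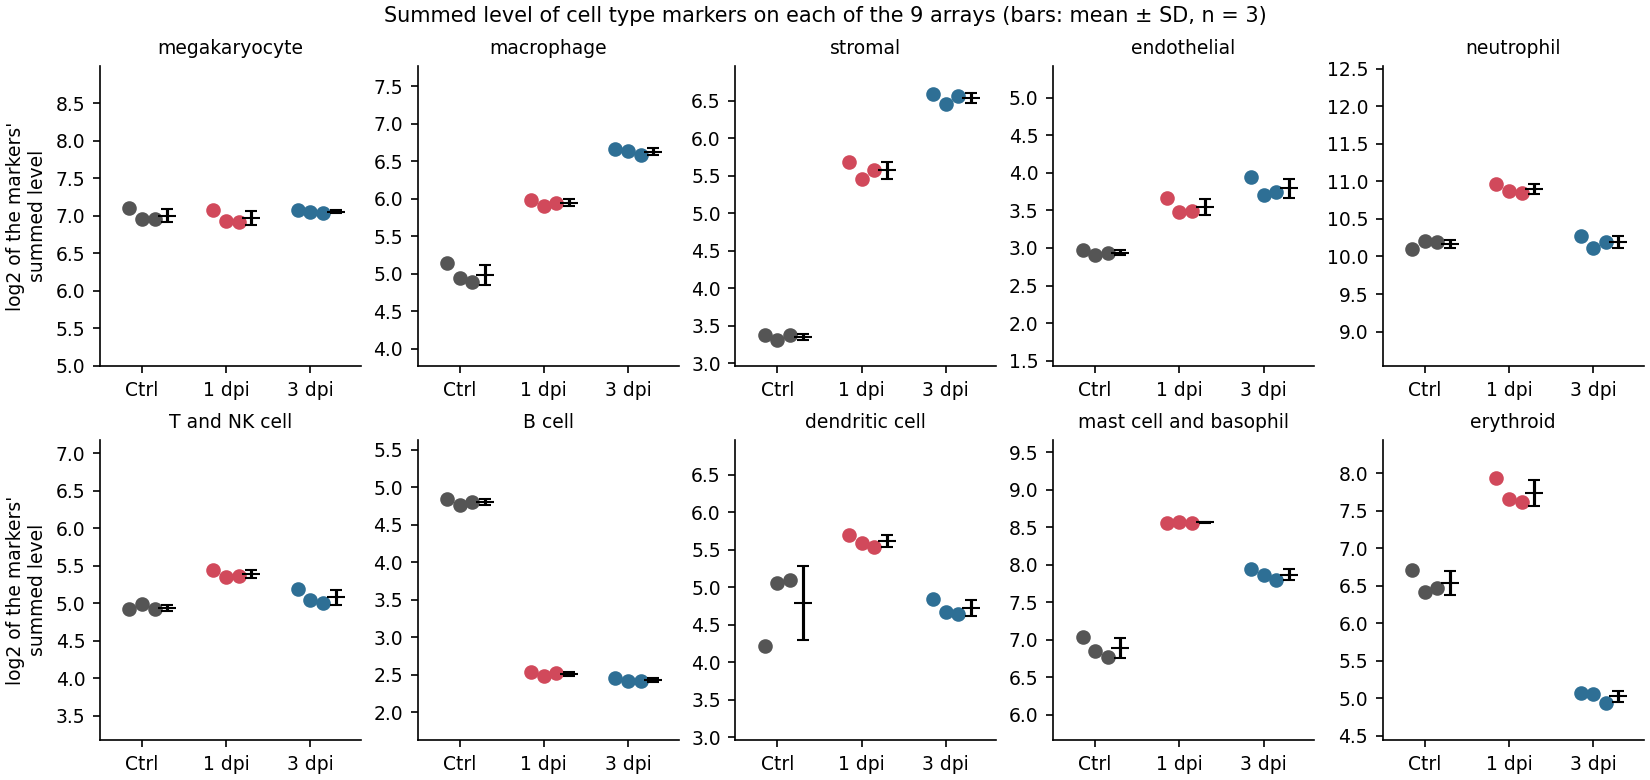
Summed level of each cell type's markers on each of the 9 arrays (log2 of the summed scaled signals of the tested markers), 1 panel a list, with points for arrays and bars for the mean and SD over 3 arrays. Stromal markers go from 3.36 in Ctrl to 6.54 at 3 dpi on average, B cell markers from 4.81 to 2.44, and megakaryocyte markers stay between 6.91 and 7.1.

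Across the 3 comparisons, the cytokine genes differed in when they were highest. Lif, Tnf and Il1rn passed at 1 dpi and had their highest level there, as did Osm and Csf1, whose groups did not overlap but whose changes were under 2-fold. Il6 and Lif passed as higher at both times and Il18 at 3 dpi, though the call of Lif at 3 dpi was lost under 3 of 22 alternatives. Between 3 and 1 dpi only Lif, lower, and Il18, higher, passed, while Tnf (-0.92), Il1rn (-0.84) and Il6 (-0.28) did not reach 2-fold. Il33 was measured mainly in Ctrl, so that its size of change is not known, Il1a did not reach 2-fold and took a sign at 1 dpi that depended on scaling, and Csf3 was not measured. With 3 arrays a group, an exact two-sided permutation test of a single gene cannot give a p under 0.1, so the number of arrays limits what such a test can show.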

How the data were processed

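The authors deposited spot intensity values of 9 one-colour Agilent arrays from Feature Extraction 10.7.1.1, which subtracts background within an array and does not scale between arrays. The paper's text names the assay in more than one way, so its labelling and scanning steps were not used. The authors also deposited log2 values per gene name, made in a way that is not stated. They were not centred by gene, since each column follows its array's signal across genes (Pearson r from 0.836 to 0.853), so a higher value is a higher signal, and quartiles hardly differ between columns. The column medians were 5.84, 5.84 and 5.83 in Ctrl, 5.8, 5.8 and 5.79 at 1 dpi and 5.86, 5.86 and 5.87 at 3 dpi, 27068 of the 27275 names occur on the array, and the table served as an alternative with 21694 genes tested.

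Of 62976 spots, 3671 controls were left out, and leaving out outlier spots removed 20 probes. No spot was saturated. Processed signals were scaled to each array's 75th percentile in log2, and spots of a probe were averaged. RefSeq accessions named 32984 probes and 23601 kept the file's name. A probe entered the test if every array of some group showed it well above background (44300), and the brightest stood for its gene (29410). A single limma model (version 3.58.1, R 4.3.3) held a mean for each group, with two-sided tests, with Benjamini-Hochberg adjustment over all genes, and a gene passed at an adjusted p under 0.05 and at least 2-fold. The calls were tested on simulated data. The package data.table (1.17.8) read the files, and promoters and figures used Python 3.11.15, pandas 2.3.3, numpy 2.4.6 and matplotlib 3.10.9.

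The genes and lists (receptors, related cytokines, maturation, signal transduction, feedback and targets, and 10 cell type marker lists) were chosen with earlier results of these data known. Named genes are the 10 cytokine genes, of each other list up to 4 that passed with the largest change in a comparison and measured throughout both groups compared, the brightest marker of each cell type, the selection markers Itga2b and Gp5, and for each cytokine gene that passed and was measured on all arrays, the 3 most alike in Pearson r. Casp1, Csf1r, Csf2, Vsig4, Il7 against Ctrl, Lifr at 1 dpi and Ctf1 at 3 dpi were added after their values were seen. Alternatives were quantile and array-median scaling, normexp together with quantile normalization, other filters, the mean of probes, the deposited table, no minimum fold, a replicate block, slide, only the groups compared, the methods' t-test and leaving out each array.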

Additional observations from a re-analysis of the deposited data

Results flagged for a closer look

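The 2 cytokine genes that passed limma's test of the difference between 3 and 1 dpi moved in opposite directions between them. Il18 was higher at 3 dpi by 1.65 on the log2 scale (SE 0.07, adjusted p = 9.6e-06), with all 3 arrays of 3 dpi above all 3 of 1 dpi. For Lif the difference was -2.79 (SE 0.33, adjusted p = 0.00046), with all 3 arrays of 3 dpi below all 3 of 1 dpi. Both passed under all 22 alternatives, between 1.58 and 1.84 for Il18 and between -2.92 and -2.09 for Lif. Between these times 6 of 10 macrophage and 5 of 10 stromal markers also rose, and of 8 erythroid markers 4 rose and 3 fell. Prss34 (-0.93) and Mpo (-0.92), the brightest mast cell and basophil marker and neutrophil marker, were lower by under 2-fold. The part of these cells in either difference was not tested.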

How the results depend on the processing

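Up to 22 alternatives were run for a gene, 9 of which leave out 1 array. Il1a and Il33 had 21, since neither was tested when all 9 arrays had to be above background, and the lists were recomputed under the 2 other scalings only. Il6, Tnf and Lif at 1 dpi and Il6 and Il18 at 3 dpi passed in the same direction under all 22. Of 9 cytokine genes tested, 5, 4 and 2 passed at 1 dpi, 3 dpi and between them, with Il33 counted at 1 dpi and at 3 dpi. The shares of all genes were 15.2%, 8.8% and 8.8%. With no minimum fold 8, 8 and 7 of the 9 passed, beside 16443, 9416 and 13125 of all 29410 genes tested. At 3 dpi normexp with quantile normalization, 2 choices changed together, left 2 and the methods' t-test after Benjamini-Hochberg left 2. Leaving out 1 array gave 4 to 6, 3 to 4 and 2 to 3, the last through Il33 without 3 dpi replicate 1, where it was measured on no array of either group. The replicate block gave 5 at 1 dpi.

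Among all genes 4468, 2587 and 2588 passed. No minimum fold gave 16443, 9416 and 13125, normexp with quantile normalization 1667, 1147 and 1088 (quantile normalization alone 3453, 2429 and 2573), and no filter on dim probes 4489 between the time points. Leaving out 1 array gave 3561 to 5367, 2347 to 2768 and 2264 to 2812. Without Ctrl replicate 1, which is also slide as a block, the counts were 3561, 2372 and 2812. The replicate block gave 4273, 2498 and 2494. By the methods' t-test 3946, 2550 and 2726 genes passed unadjusted and 3360, 2207 and 2524 after adjustment. Of the genes that passed at 1 dpi 81.1% were higher, against 56.3% after quantile normalization, 48.8% with array-median scaling, 49.8% in the deposited table and 68.7% with normexp and quantiles, and between the time points 45.2% against 62.9%, 67.2%, 62.6% and 52.7%, and against 26.7% with no filter on dim probes. At 3 dpi 79.4% were higher, against 66.8% in the deposited table. The share of genes that rise therefore depends on scaling and on the filter, and the cause was not tested.

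Siglech at 1 dpi turned from 1.08 to -0.15 as the mean of its probes and to -2.08 in the deposited table, which also turned -0.96 to 1.46 between the time points. Of 5004 values of named genes under alternatives, 4761 kept their direction and side of the threshold, 92 no longer passed, 104 newly passed, 44 others moved and 3 reversed. Same-numbered arrays of different groups correlated at r from -0.11 to 0.13 after group means were removed. Signal over background limits Il33, Il1a and Csf3, which lie at or near it, and the folds of Lif against Ctrl, where it was dim.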
